A study of Mus musculus with 3 samples.

Results

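Connexins are the subunits of gap junctions, and the 7 examined here are Gja1, Gja4 and Gja5 of the alpha class, Gjb2, Gjb5 and Gjb6 of the beta class and Gjc1 of the gamma class. They were chosen by gene symbol, with earlier results of these data known, and are 7 of 46983 genes in a table of RNA-seq counts. A further 13 mouse connexin genes were read out for comparison. The table held 3 bulk libraries, all of 1 group, made from leptomeninges, the thin inner membranes over the brain, of vehicle-treated mice. The membranes were dissected under magnification and dissociated, cells were sorted by flow cytometry, and the labels call the product a pia-enriched fraction. The labels used here give no second treatment and say nothing of strain, genotype, age, the purpose of the vehicle, the sorting markers or whether animals were pooled, so the spread between libraries may be partly technical.

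Connexins assemble into a ring in the membrane of a cell, called a connexon, which docks end to end with a connexon of the adjoining cell and so opens a channel for ions and small molecules between the cytoplasms. The pia and arachnoid are classically described as fibroblast layers joined by gap junctions built from Gja1, Gjb2 and Gjb6. In the surrounding brain Gja1 and Gjb6 are the main connexins of astrocytes, Gja4 and Gja5 belong to arterial endothelium, and Gja4 and Gjc1 also occur in vascular smooth muscle and pericytes. Gjb5 is known mainly from stratified epithelia such as skin.

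Docking depends on 2 extracellular loops, each of which carries 3 cysteines at fixed spacing. The coding stretches of both loops are shown because docking is the shared function of the family and because similarity between members bears on how reads are assigned to them. They were found in GENCODE M21 transcripts (GRCm38) as cysteine codons separated by 6 and then 3 other codons in the first loop, and by 4 and then 5 in the second. Each member held each pattern exactly 1 time, and of all 20 connexin genes 19 held the first and 18 the second. Of 21667 protein-coding genes, 2.09% held the first pattern and 2.60% the second. Sequences are written 5′ to 3′ on the coding strand, with the cysteine codons in capitals, the first loop first.
Gja1 first loop: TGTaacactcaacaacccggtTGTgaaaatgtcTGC
Gja4 first loop: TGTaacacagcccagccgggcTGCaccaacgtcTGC
Gja5 first loop: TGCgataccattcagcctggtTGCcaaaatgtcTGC
Gjb2 first loop: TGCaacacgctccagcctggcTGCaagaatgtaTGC
Gjb5 first loop: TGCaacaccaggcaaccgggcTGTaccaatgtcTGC
Gjb6 first loop: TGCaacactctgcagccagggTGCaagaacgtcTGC
Gjc1 first loop: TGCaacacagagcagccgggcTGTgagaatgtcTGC
Gja1 second loop: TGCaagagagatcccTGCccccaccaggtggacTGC
Gja4 second loop: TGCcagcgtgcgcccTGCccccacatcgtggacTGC
Gjb2 second loop: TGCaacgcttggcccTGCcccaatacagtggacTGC
Gjb5 second loop: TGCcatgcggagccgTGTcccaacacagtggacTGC
Gjb6 second loop: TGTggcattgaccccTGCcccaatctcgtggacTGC
Gjc1 second loop: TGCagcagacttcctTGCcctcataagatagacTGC

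In the first loop Gjb2 and Gjb6 were the closest pair, with 30 of 36 bases identical, and Gja4 and Gja5 the most distant, with 23. In the second loop Gjb2 shared 25 of 36 bases with Gjb6 and 28 with Gjb5. The longest identical run between whole transcripts of any 2 members was 38 bases, between Gja1 and Gja5, which is shorter than the 50-base reads. For Gja4, Gjb2, Gjb5 and Gjb6, 0% of the 50-base words of their transcripts occurred in transcripts of another gene on either strand, and for Gja1 and Gjc1 the share was 0.115% and 0.0396%. Gja5 was the exception, at 15.3%, and its annotated exons overlap exons of Gpr89 on the opposite strand. The counts of Gja5 are uncertain, since the strand setting of the counting is not given in the sources used here.

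On GRCm38 the members lie on 5 chromosomes. Gjb2 (chromosome 14, 57098600 to 57104702) and Gjb6 (chromosome 14, 57123303 to 57133611) lie on the minus strand with 18600 bases between them, which hold 1 other annotated protein-coding gene, Gm4491. Gja4 (chromosome 4, 127311421 to 127314039) and Gjb5 (chromosome 4, 127354809 to 127358181) are both on the minus strand of chromosome 4. Gja1 is on chromosome 10 (56377330 to 56402513, plus strand), Gja5 on chromosome 3 (96904693 to 97077416, plus strand) and Gjc1 on chromosome 11 (102799579 to 102819700, minus strand).

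Gene counts totalled 21002860, 28704952 and 25338616 in libraries 1, 2 and 3. Levels are in counts per 1000000 of the library size after TMM scaling (CPM), which was 19793732, 29759000 and 25934158. A gene without any count could lie at up to 3 counts, equal to 0.152, 0.101 and 0.116 CPM in that order. Library 1 stood apart. Mitochondrial genes took 0.918% of its gene counts, against 3.60% and 3.46% in libraries 2 and 3. The summed CPM of 8 macrophage genes, led by Lyz2 and C1qb, was 12.3 there against 261 and 749 in libraries 2 and 3. The 7 choroid plexus genes, led by Aqp1 and Clic6, summed to 112 against 245 and 274. Of these only Aqp1 was highest in library 1 (73.3, 56.9 and 60.6 CPM). The others were lowest there, such as Kcnj13 (2.27, 37.6 and 48.2 CPM). The log2 ratio of library 1 to the other libraries also followed base composition. Its Spearman coefficient with GC content was 0.607 across 14375 genes, which are not independent replicates. Each connexin is therefore also given, where it matters, after removal of GC content and length trends.

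Among the 7 genes Gja1 and Gjb6 carried most of the connexin counts. Gja1, which encodes the most widely distributed connexin of mammals, had 22623, 43571 and 17592 counts in libraries 1, 2 and 3, which is 1143, 1464 and 678 CPM (1095 ± 395, SD, n = 3). Library 2 was highest and library 3 lowest, a 2.16-fold span. Its mean CPM lay at percentile 99.3 of 14409 genes that passed a filter on low counts.

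Gja4 had 1218, 1246 and 2180 counts, or 61.5, 41.9 and 84.1 CPM (62.5 ± 21.1, SD, n = 3), with library 3 highest. Gja5, which encodes a connexin of arterial endothelium and the cardiac conduction system, was near the detection limit with 27, 5 and 38 counts. These are 1.36, 0.168 and 1.47 CPM (0.999 ± 0.722, SD, n = 3). The exact 95% Poisson interval of the 5 counts in library 2 was 1.62 to 11.7 counts, below the intervals in library 1 (17.8 to 39.3) and library 3 (26.9 to 52.2). Such intervals cover counting error only, and amplified reads without molecular identifiers are not independent molecules. Gja4 and Gja5 thus had the same order of libraries, with library 3 highest and library 2 lowest, at levels far apart.

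In the beta class Gjb6 had 13420, 16635 and 10860 counts, or 678, 559 and 419 CPM (552 ± 130, SD, n = 3), at percentile 98.3 of the tested genes. Gjb2, which forms mixed channels with Gjb6 in the inner ear, had 1669, 2413 and 1596 counts, or 84.3, 81.1 and 61.5 CPM (75.6 ± 12.3, SD, n = 3). Both were highest in library 1 and lowest in library 3. Gjb5 had 6, 21 and 74 counts, or 0.303, 0.706 and 2.85 CPM (1.29 ± 1.37, SD, n = 3), with intervals of 2.20 to 13.1, 13.0 to 32.1 and 58.1 to 92.9 counts. Library 3 carried most of the Gjb5 signal, and without it the mean was 0.499 CPM.

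In the gamma class Gjc1 had 256, 299 and 380 counts, or 12.9, 10.0 and 14.7 CPM (12.5 ± 2.33, SD, n = 3). Library 3 was again highest and library 2 lowest. The level was near the middle of the tested genes, at percentile 42.0.

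**Figure D1:**
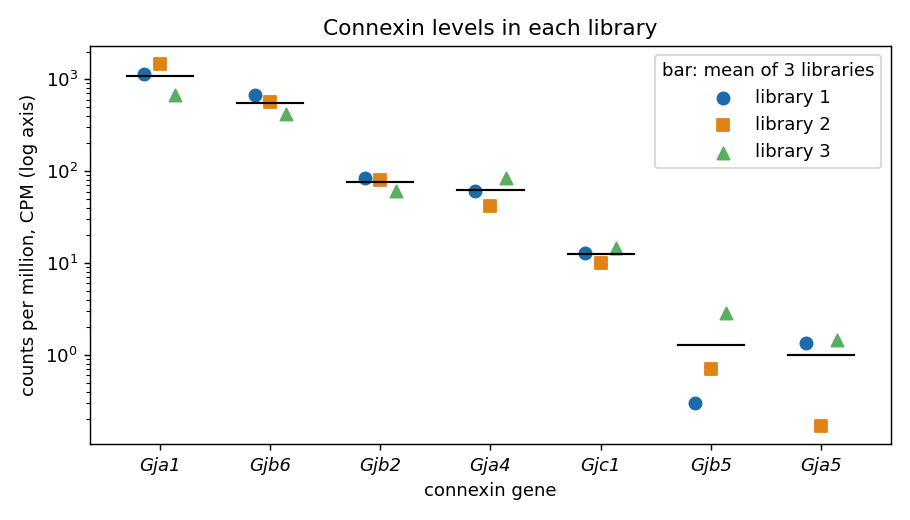
Level of each connexin in CPM on a log axis, with 1 point per library and a bar at the mean of 3 libraries. Gja1 and Gjb6 lie at 419 CPM or more in every library, Gjb2 and Gja4 between 41.9 and 84.3 CPM, Gjc1 at 10.0 to 14.7 CPM, and Gjb5 and Gja5 at or below 2.85 CPM.

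The members were next ordered within libraries, per kilobase of gene length, where the scaling of libraries cancels. With the union of all annotated exons as length, Gjb6 was first at 206 ± 48.5 CPM per kilobase (SD, n = 3) and Gja1 second at 107 ± 38.5. Gja4 (37.1 ± 12.5) and Gjb2 (31.4 ± 5.12) followed, then Gjc1 (2.51 ± 0.465), Gjb5 (0.748 ± 0.797) and Gja5 (0.174 ± 0.126). An order of neighbours was taken as resolved where all 3 libraries agreed in sign and the mean log2 ratio exceeded its SD. By this rule 4 of 6 neighbouring pairs were resolved. The ratio of Gjb2 to Gjc1 had a mean log2 of 3.65 ± 0.48 (SD, n = 3), that of Gja1 to Gja4 1.51 ± 1.06, and that of Gjc1 to Gjb5 2.33 ± 1.53. With coding length in place of exon union the same means were 3.41, 3.92 and 3.32. Gja4 and Gjb2 were not resolved, with log2 ratios of 0.06, -0.44 and 0.96 in libraries 1, 2 and 3. With coding length Gjb2 was the higher in all 3 libraries, by a mean log2 ratio of 0.88 ± 0.71. Also not resolved were Gjb5 and Gja5, with -0.43, 3.81 and 2.70. The exact permutation test by sign flips, two-sided, returned p = 0.25 for every resolved pair (0.375 after Benjamini-Hochberg adjustment over 6 pairs), which is the smallest p that 3 libraries allow. Any pair with the same sign in all 3 libraries returns this p, so it adds nothing to the rule. The neighbours were also ordered by these same values.

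The first place depended on the length used. Gja1 has 8 annotated transcripts whose exons together span 10257 bases, whereas its longest single transcript has 3889 bases, its coding sequence 1146 bases, and the exon union of Gjb6 2674 bases. The log2 ratio of Gjb6 to Gja1 was 1.19, 0.55 and 1.24 per kilobase of exon union in libraries 1, 2 and 3 (0.99 ± 0.38, SD, n = 3). Per kilobase of the longest transcript its mean was -0.061, and per kilobase of coding sequence -0.40. Levels of Gja1 and Gjb6 per kilobase of longest transcript were 282 ± 102 and 262 ± 61.6, so their ranges overlapped. Which of them is the higher was therefore not settled by these counts, whereas both exceeded Gjb2 under every length used. Gjb6 exceeded Gjb2 by 6.12-fold to 7.23-fold per kilobase of exon union and by 5.89-fold to 6.96-fold per kilobase of coding sequence.

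**Figure D2:**
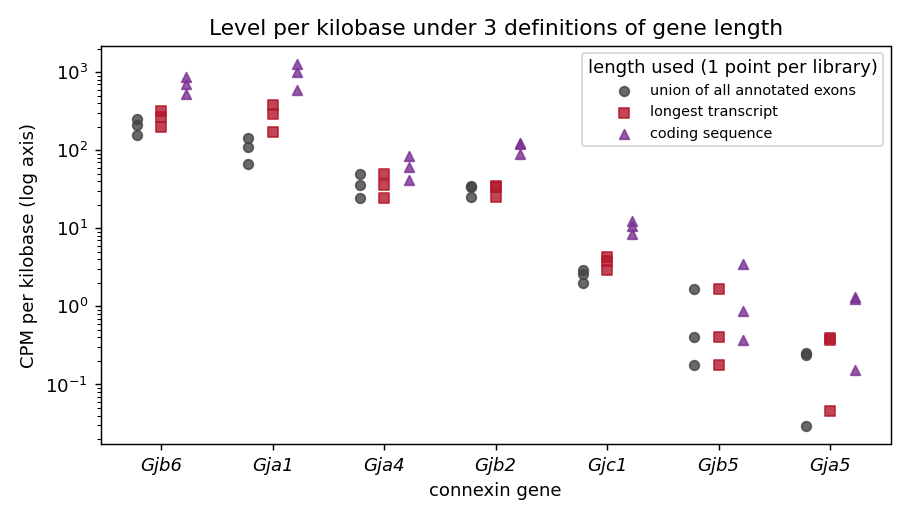
Connexin levels in CPM per kilobase on a log axis, with 1 point per library, for 3 definitions of gene length marked by shape and colour. Gjb6 lies above Gja1 with the exon union (206 against 107 on average) and below it with the coding sequence (705 against 956), while Gjc1, Gjb5 and Gja5 stay below the others.

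Shares of the connexin signal described the same mixture. Of the CPM per kilobase of exon union summed over all 20 connexin genes, Gjb6 made up 57.1%, 49.8% and 49.5% in libraries 1, 2 and 3, and Gja1 25.1%, 34.0% and 20.9%. Gjb2 was at 7.90%, 8.02% and 8.08%, and Gja4 at 8.23%, 5.92% and 15.8%. Per kilobase of coding sequence Gjb2 was at 5.98%, 5.46% and 6.61%, and Gja4 at 2.96%, 1.91% and 6.13%. Gja1, Gjb2 and Gjb6 together held 90.2%, 91.8% and 78.4%, and per kilobase of coding sequence 95.6%, 96.4% and 88.6%. Library 3 had the smallest share of these 3 genes under both lengths.

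Variation between libraries was tested by edgeR's goodness-of-fit test across all 14409 genes that passed the filter. Gja1, Gja4, Gjb2, Gjb6 and Gjc1 passed the filter, and Gja5 and Gjb5 were too low. With Benjamini-Hochberg adjustment over all genes and a threshold of 0.05, edgeR called 0 of the 5 variable, against 0.437% of all tested genes. The count was also 0 with DESeq2's size factors and dispersion trend. At an unadjusted p below 0.05 it was 0 of 5, against 7.04% of tested genes. The unadjusted p was 0.221 for Gja1, 0.307 for Gja4, 0.540 for Gjb6, 0.747 for Gjb2 and 0.793 for Gjc1, and the adjusted p was 0.9997 for each. The range between the highest and lowest library had a median of 0.69 on the log2(CPM + 1) scale over the 5 genes, near the 0.67 of all tested genes. Gja1 (1.11) and Gja4 (0.99) varied most and Gjb2 (0.45) least. These values do not show that the levels were equal, since the test recovered 149 of 200 genes changed 8-fold in 1 library in simulated counts and smaller changes were not simulated.

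After removal of GC content and length trends the range of Gja1 was 1.46, its unadjusted p 0.0226 and its adjusted p 0.557 (edgeR goodness of fit), and its highest library became library 1 in place of library 2. Gja1 has a GC content of 42.2%, the lowest of the 7 genes. Over all alternatives the lowest adjusted p of any member was 0.444, for Gja1 (edgeR goodness of fit).

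**Figure D3:**
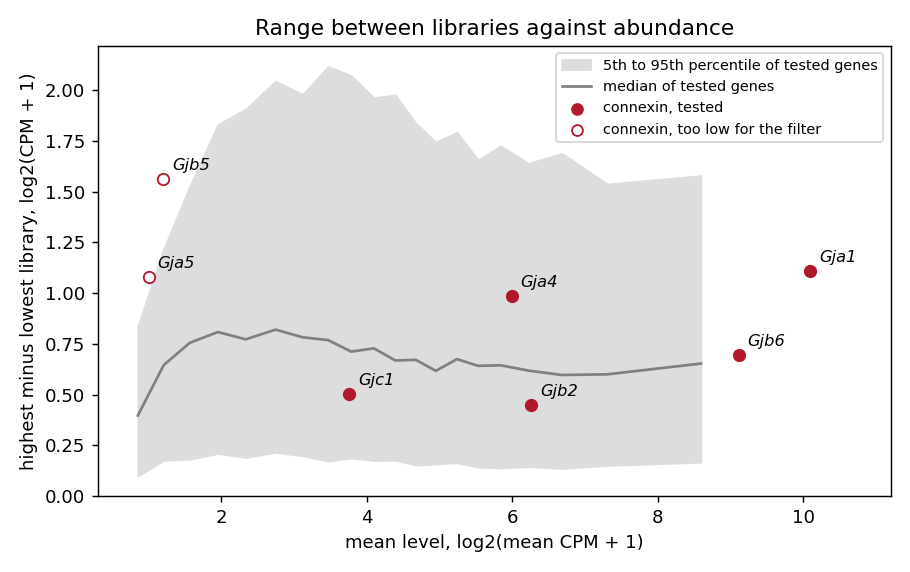
Range of log2(CPM + 1) between the highest and lowest library against mean level, for the 7 connexins and, as a band, the 5th to 95th percentile of tested genes in 20 classes of abundance (the band ends at the median of the highest class). The 5 tested connexins have ranges of 0.45 to 1.11, and the open symbols of Gjb5 (1.56) and Gja5 (1.08) mark genes below the filter.

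The members fell into sets by order of libraries. Gja4, Gja5 and Gjc1 were highest in library 3 and lowest in library 2, an order held by 10.5% of tested genes. Gjb2 and Gjb6 were highest in library 1 and lowest in library 3, as were 17.7% of tested genes, and Gja1 was highest in library 2 and lowest in library 3, as were 9.55%. These orders are descriptions of 3 libraries. After the trends were removed, Gja4 was lowest in library 1 by a small margin (5.66 against 5.67 in library 2 on the log2(CPM + 1) scale) and Gjc1 was highest in library 1 (4.04 against 3.88 in library 3).

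The ratio of Gjb2 to Gjb6 was the steadiest of the 10 pairs of tested members. Its log2 CPM ratio was -3.01, -2.79 and -2.77 in libraries 1, 2 and 3, an SD of 0.13, or 0.08 after the trends were removed. The next steadiest were Gja4 to Gjc1 (SD 0.23) and Gja1 to Gjb2 (SD 0.36), and the least steady was Gja1 to Gja4 (SD 1.06). Such steadiness was not rare, since 4.80% of the other tested genes followed Gjb6 with an SD at most as large as that of Gjb2. Gja4 and Gjc1 were less steady after the trends were removed (SD 0.51).

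Marker lists of the cells that could supply each connexin were read out in the same libraries. In bulk RNA, fewer cells of a type and less RNA per cell cannot be told apart. The labelled tissue was checked against 6 fibroblast genes, of which Col1a2 and Col1a1 were the most abundant; their summed CPM was 23467, 29100 and 25292. The 10 genes of leptomeningeal fibroblasts, led by Slc47a1 and Ptgds, summed to 1668, 1702 and 1742 CPM, and 9 of 10 had a mean above 1 CPM. The 7 genes of the arachnoid barrier, led by Abcg2 and Cldn11, summed to 272, 371 and 434 CPM. Of the single leptomeningeal genes, 7 of 10 were highest in library 2, 3 in library 1 and 0 in library 3. Among all 14409 tested genes, 32.8% were highest in library 2, 27.6% in library 3 and 5701 genes in library 1. Gjb2 and Gjb6 were highest in library 1. Gja1 was highest in library 2, but in library 1 once the trends were removed.

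Astrocytes share Gja1 and Gjb6 with meninges. The 8 other astrocyte genes, all above a mean of 1 CPM, summed to 107, 139 and 149 CPM, with Slc4a4 and Slc1a3 the most abundant. Their means ran from 0.297 CPM per kilobase of exon union for Aqp4, the astrocyte water channel, to 5.48 for Aldoc, against 107 for Gja1 and 206 for Gjb6. The astrocyte sum was highest in library 3, where Gja1 and Gjb6 were lowest, and nearly as high in library 2. Of the 8 genes, 6 were highest in library 3 and 2 in library 2, against 27.6% and 32.8% of all tested genes. Slc4a4 was at 36.5, 77.3 and 36.9 CPM, highest in library 2 as Gja1 was. The part of astrocytes in the levels of Gja1 and Gjb6 was not tested. Gfap, the astrocyte filament gene, was at 7.78, 6.38 and 9.37 CPM.

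Vascular lists were set beside Gja4, Gja5 and Gjc1. The 9 endothelial genes, led by Esam and Cdh5, summed to 171, 119 and 176 CPM, and the 10 mural genes, led by the contractile genes Acta2 and Tagln, to 3534, 3023 and 5296 CPM. Both sums had library 3 highest and library 2 lowest, as Gja4, Gja5 and Gjc1 did before the trends were removed. Gja4 and Gjc1 did not keep that order afterwards, and the marker sums were not read out after the removal. Of the single mural genes 9 of 10 were highest in library 3, against 27.6% of all tested genes. Myh11, Rgs5, Abcc9 and Kcnj8 among them were lowest in library 1, not in library 2. Also highest in library 3 were 7 of 7 Schwann cell genes, 6 of 8 oligodendrocyte genes and 8 of 8 macrophage genes. The endothelial genes were spread evenly, with 3 highest in each library. Among them only Esam, the most abundant (54.9, 33.9 and 81.7 CPM), and Pecam1 had the library order of the endothelial sum. Kdr, Egfl7 and Tie1 were highest in library 1, and Cdh5, Tek and Erg in library 2. The 7 arterial endothelial genes, led by Hey1 and Efnb2, summed to 69.6, 67.3 and 69.3 CPM. Among them Gkn3 had 19, 0 and 30 counts and Sox17 at most 2 counts. The others did not have the library order of Gkn3. Hey1 was highest in library 1, Bmx (2.83, 3.93 and 1.43 CPM) and Efnb2 in library 2. Sema3g (1.36, 1.58 and 6.59 CPM) and Dll4 were lowest in library 1. The 7 Schwann cell genes, led by Pmp22, summed to 2317, 2115 and 3558 CPM. The 8 oligodendrocyte genes, led by Mbp and Cnp, summed to 1428, 1136 and 2024 CPM. Both sums had the order of libraries of the mural sum. Schwann cells also express Mbp and Cnp, and the oligodendrocyte genes Mog, Opalin, Ermn and Cldn14 had means of at most 0.320 CPM. Mobp and Mag of the same list were higher, at 45.2, 40.7 and 57.5 CPM and at 19.2, 18.3 and 41.0 CPM. The part of any of these cells in the connexin values was not tested.

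Keratinocyte genes were set beside Gjb5. Krt5, Dsg1a and Dsg3 had 0 counts in every library, and the sum of 9 genes, led by Krt15 and Krt10, was 28.5, 19.5 and 15.3 CPM. Krt15 alone was at 23.0, 9.48 and 5.48 CPM, in the same order of libraries as the sum. Of the 6 genes with counts, 2 were highest in each library. Gjb5 was highest in library 3. The 7 neuron genes, led by Snap25 and Tubb3, summed to 74.2, 88.7 and 85.6 CPM.

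**Figure D4:**
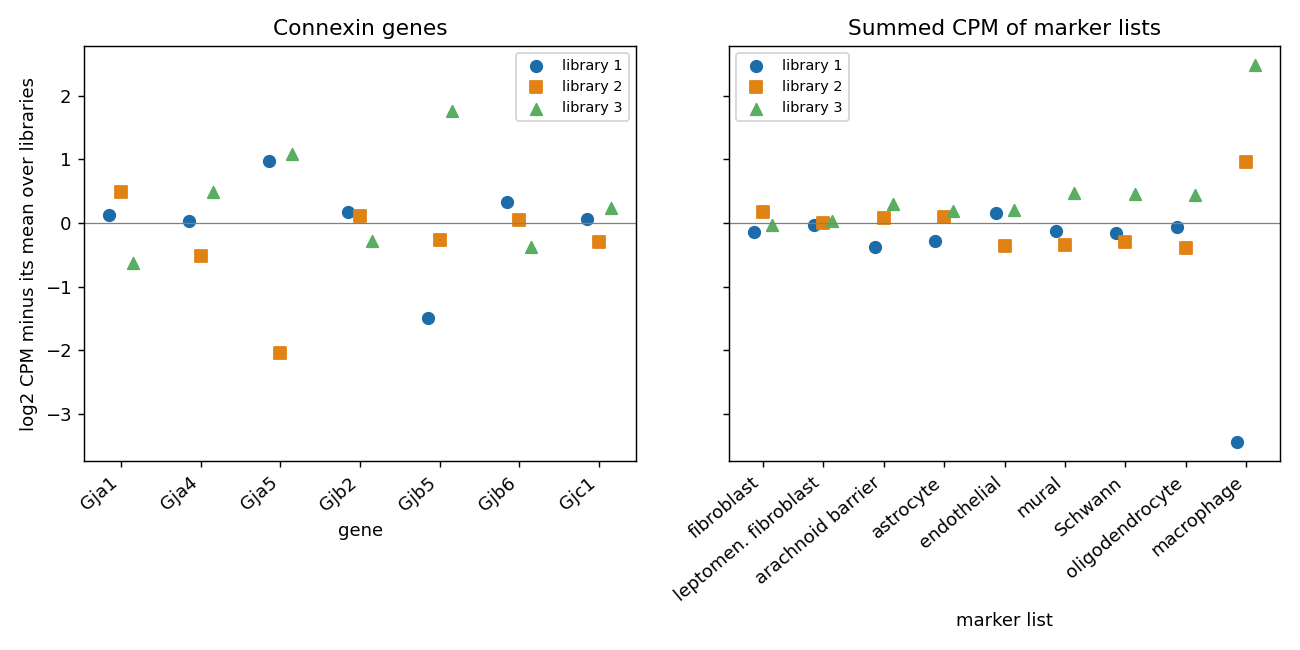
Log2 CPM minus its mean over libraries, with 1 point per library, for the 7 connexins (left) and for the summed CPM of 9 marker lists (right). Gja4, Gja5 and Gjc1 share with the endothelial, mural, Schwann and oligodendrocyte sums the order of library 3 highest and library 2 lowest. Of the single endothelial genes only Esam and Pecam1 had this order. Values are shown without removal of GC content and length trends, after which Gja4 and Gjc1 did not keep this order. The macrophage sum spans 12.3 to 749 CPM.

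Of all 20 connexin genes, 9 had a mean of at least 1 CPM, 6 of them among the 7 members. Gjc3 and Gjb1 were the most abundant connexins outside the 7. Gjc3, a connexin of myelinating glia, was at 10.4, 15.9 and 35.5 CPM, with an unadjusted p of 0.0472 and an adjusted p of 0.695 (edgeR goodness of fit). Gjb1, which Schwann cells and oligodendrocytes use within myelin, was at 1.97, 4.20 and 5.55 CPM. Both were lowest in library 1 and highest in library 3, the order also seen for Gjb5 and held by 17.2% of tested genes. The count of 9 was 7 without library 3 and 10 without library 2, and 7 genes reached 1 CPM in every library.

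Several other connexins were at or near the floor. Gjd3 and Gje1 had 0 counts in every library, and Gja3, Gja6, Gja10, Gjd2 and Gjd4 had at most 11.

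Pannexins, which form channels in single membranes and resemble connexins in topology, were low. Panx1 was at 0.859, 1.21 and 2.16 CPM, and Panx2 and Panx3 had means of 0.328 and 0.283 CPM. Of 15 genes for proteins that bind, phosphorylate or anchor connexins or adjoin them in cell junctions, 14 had a mean above 1 CPM and were tested, and 0 of 14 were called variable (edgeR goodness of fit, adjusted), with 1 at an unadjusted p below 0.05, against 0.437% and 7.04% of all tested genes. The 1 gene was Cav1 of caveolae (54.0, 95.5 and 199 CPM), named after its values were seen, with an unadjusted p of 0.0101 and an adjusted p of 0.368. The most abundant were Nedd4, a ubiquitin ligase that acts on Gja1 protein (1548, 2045 and 1688 CPM), Ctnna1 of adherens junctions (360, 343 and 397 CPM) and Ctnnb1 (194, 216 and 218 CPM). The lowest were Tjp3 (0.253, 0.672 and 0.810 CPM) and Cdh2 (2.88, 6.86 and 5.71 CPM). Nedd4, Ctnna1 and Ctnnb1 had smaller ranges between libraries (0.40, 0.21 and 0.17 on the log2(CPM + 1) scale) than Gja1, and Cav1 a larger one (1.87).

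Genes most like the 3 most abundant members across libraries were taken as those within 4-fold of their mean CPM with the smallest largest difference in log2 deviation. For Gja1, among 530 candidates, these were Cdh11 (largest difference 0.22), Thbs1 (0.22) and Adamts2 (0.23), and 0 candidates came within 0.1. For Gjb6, among 1222 candidates, they were Klf6 (0.03), Slc23a2 (0.04) and Agtrap (0.05), with 32 within 0.1. For Gjb2, among 6529 candidates, they were Vps39 (0.01), Pcnt (0.02) and Pigv (0.02), with 172 within 0.1. With 3 libraries many genes have nearly the same pattern, so the likeness is a description of these libraries.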

How the data were processed

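RNA of 3 sorted pia-enriched samples was amplified from 2 ng over 12 cycles and sequenced as paired 50-base reads, per the labels' protocols. The deposited values are raw counts per gene, not normalized, 1 column per library. The submitters' processing notes name HTSeq 0.5.3, DESeq2 1.22.1 and the build mm10; the aligner and strand setting are not given in the sources used here. The 5 rows of reads given to no gene (45.6%, 39.1% and 39.6% of reads) stayed out of library sizes and tests. Identifiers were matched to GENCODE M21 (46488 of 46983).

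edgeR 4.0.16 under R 4.3.3 supplied TMM scaling and the filterByExpr filter (minimum count 10). With 1 group there is no contrast, so the edgeR test for goodness of fit was run with trended dispersions (chi-square, 2 degrees of freedom, Benjamini-Hochberg over all tested genes). It was tested on simulated data, where 149 of 200 changed genes were recovered with 4 false calls among 14409 genes. DESeq2 1.42.0 gave the alternative size factors and dispersions. GC content and length trends were removed with natural splines. Named genes were all members, connexins and pannexins with a mean of at least 1 CPM, the 3 highest and 2 lowest partners, the 2 highest genes of each marker list with any at 0 throughout, and the 3 most similar genes of each of the 3 most abundant members; other names were chosen after their values were seen. Some connexin and marker genes on the lists, and 1 loop sequence, are not reported here by name. The members and lists were chosen with earlier results of these data known. The goodness-of-fit p compares a gene's spread between these samples with that of genes of like abundance. Spread common to such genes does not lower it. The sign-flip p concerns only the log2 ratio of a pair of genes. The spread between these samples may be technical.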

Additional observations from a re-analysis of the deposited data

Results flagged for a closer look

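Reads that the table gave to no gene lay outside the measurements used above. They made up 45.6%, 39.1% and 39.6% of all reads in libraries 1, 2 and 3. How many of them came from connexin transcripts cannot be read from the table.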

How the results depend on the processing

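The count of connexins called variable stayed at 0 under all 9 alternatives. The mean CPM of each member moved by less than its SD under other size factors and plain totals. Removal of 1 of 3 libraries cannot move a mean by as much as its SD, so it gives no such check. Gjb5, at a mean of 1.29 CPM, was at 0.499 CPM without library 3. Of the resolved orders, the one that reversed was the log2 ratio of Gjb6 to Gja1 (0.99 per kilobase of exon union), which was -0.40 per kilobase of coding sequence, -0.061 with the longest transcript and -0.95 with no division by length; the length assigned to Gja1 sets this. Gja4 to Gjb2 (0.19, not resolved) also turned sign, to -0.88 with coding length, -0.32 with no division by length and -0.19 without library 3. Gja1 to Gja4 (1.51) rose to between 2.91 and 4.12 under the other lengths, and Gjc1 to Gjb5 (2.33) was 3.87 with no division by length and 1.56 without library 1. Removal of the trends, which are centred over libraries, cannot move these means. The count of variable genes in the whole table (63) was 134 when all 25083 genes with any count were tested, and 96 after removal of GC content and length trends, for which the cause was not tested. Leaving out one replicate at a time, and so testing fewer samples, gave between 12 and 28 genes. No paired analysis was possible because all 3 libraries belong to 1 group. Depth limited Gja5, Gjb5 and the low connexins, since a gene without counts in library 1 could lie at up to 0.152 CPM.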
